A study of Mus musculus with 4 samples.

Results

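The nuclei described here are neuron nuclei of the V2a lineage in the mouse cervical spinal cord. Each had an entry, of any value, for at least 3 genes from a set of 10: Hgf, Gm13974, Gm28494, Fam129a, Gm13912, Gm45194, Mmp17, Plscr5, Adamts19 and Svep1. The nuclei were chosen by measured values, namely which of these 10 genes had an entry for the nucleus in the deposited matrix. A nucleus counted as a neuron when it had at least 500 genes with a count and an entry for at least 4 of Rbfox3, Snap25, Syt1, Snhg11, Grin1 and Grin2b. By this rule 234 of 2644 neuron nuclei were members, out of 4001 nuclei in the files. An entry is called stored below whatever its value, because 53% to 60.1% of the entries of each library held a count of 0. These zeros were read as detections that a correction for free RNA had reduced to nothing, an interpretation of the file contents that no label states. With a count of at least 1 required for 3 of the 10 genes, fewer nuclei qualified. They numbered 28 in uninjured 1, 29 in uninjured 2, 22 in injured 1 and 6 in injured 2.

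Nuclear RNA was profiled by 10x Genomics 3' v3 single-nucleus sequencing in 2 libraries of uninjured mice and 2 libraries of mice taken 5 days after a hemisection at segment C2. All mice were female and labelled Chx10Cre/+; ROSA26CAG-LSL-Sun1-sfGFP-Myc/+, so the controls carry the same alleles, and the labels' file names call the cohorts adult. Chx10Cre switches on Sun1-sfGFP, a fluorescent nuclear envelope protein, and the fluorescent nuclei were sorted, so the sort reports any past activity of the Cre in a nucleus, whether or not it was still active. Segments C1 to C8 were taken without injury and C3 to C8 after it, so segment range and injury cannot be told apart. The labels do not state whether the 2 libraries of a group came from different animals, and the p-values below measure the spread between libraries only, part of which may be technical. Values given for the 4 libraries are always in the order uninjured 1, uninjured 2, injured 1, injured 2.

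V2a neurons are excitatory interneurons of the ventral cord that arise from progenitors shared with the inhibitory V2b neurons. They project mainly on their own side and drive motor neurons and other interneurons in circuits for locomotion, reaching and breathing. Hgf encodes hepatocyte growth factor, a secreted ligand that is cleaved to become active and signals through the receptor tyrosine kinase Met, and Adamts19 and Svep1 encode secreted proteins that act in or build the matrix outside the cell.

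The label of these neurons was checked against markers that the rule did not use. Slc17a6, the vesicular glutamate transporter that marks excitatory spinal neurons, was stored in 98.4%, 90.6%, 98% and 91.4% of members. It was above other neurons of like depth in all 4 libraries, but by a mean of only 4.53 points, so most of those stored it too. Its count after correction was nevertheless 0 in the first 3 libraries, with 38.8 CPM (CPM: counts scaled by the summed counts of all members of the library) in the fourth. Of the V2a factors, Lhx4 was stored in 76.6%, 60%, 70% and 57.1%, and Sox14 in 48.4%, 27.1%, 38% and 34.3%. Among 7 V2a and V2 lineage factors that could be compared with neurons of like depth, 1 was higher in all 4 libraries. The genes of inhibitory transmission were rare: Gad1, which makes GABA, was stored in 0% to 3.53% of members per library, Slc32a1, which loads it into vesicles, in 0% to 2.35%, and Gad2 in 0% to 8.57%. Slc6a5, the glycine transporter of glycinergic neurons, was stored in 28.1%, 20%, 18% and 8.57%. As a background level, 3.06% of 653 oligodendrocyte nuclei of uninjured library 2 stored Slc17a6. Those nuclei were chosen for at least 3 oligodendrocyte markers with a count and fewer than 4 neuron genes stored, and were shallower, with a median of 1653 stored genes against 6702 in the members of that library, so that share is a description only. Most members of each library thus stored the glutamatergic marker, a part stored Sox14, and few stored Gad1, Gad2 or Slc32a1.

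Markers of other cell types were described by summed counts and by stored entries. Endothelial, pericyte and fibroblast markers summed to 0 to 2.20 CPM per library, oligodendrocyte markers to 0 to 28.5 CPM and astrocyte markers to 0 to 20.9 CPM, against 9.45 to 29.9 CPM and 8.52 to 28.4 CPM for the last 2 lists in the other neurons. Microglia and immune markers summed to 66.0 to 266 CPM, with 1 to 3 of 8 counted. Nearly all of that came from P2ry12, at 121, 259, 66.0 and 173 CPM, while Csf1r, Ptprc, C1qa, Aif1 and Mrc1 had no count in any library. By stored entries some markers were frequent in members: Foxj1, an ependymal factor, stood at 26.6%, 22.4%, 42% and 25.7% against 23%, 18.5%, 28.4% and 24% of nuclei matched for depth. Foxj1 was above the matched nuclei in all 4 libraries, and P2ry12 was as well. Mbp, Cnp and the astrocyte gene Slc1a2 were also stored in over 20% of members of each library. Of 3 oligodendrocyte markers frequent enough to compare with the matched nuclei, 1 was higher in members in all 4 libraries. The other 2 had no single direction, nor did the 1 astrocyte marker that could be compared. The part of such entries in the results below was not tested. P2ry12 lies on the strand opposite Med12l, and the use of strand in counting is not given in the sources used here. No doublet caller was run. In all, 4 members had counts for 3 or more glial or vascular markers, 2 barcodes were shared between libraries, and neither belonged to a member.

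The 10 genes that chose the members fall into 3 kinds. Hgf, Adamts19, Svep1 and Mmp17 encode proteins that are secreted or held at the cell surface, Mmp17 being a membrane-anchored metalloprotease. Plscr5 belongs to the phospholipid scramblase family, and Fam129a (Niban1) encodes a cytoplasmic protein induced by stress. Gm13974, Gm28494 and Gm13912 are annotated as long intergenic noncoding RNAs and Gm45194 as a predicted protein-coding gene that overlaps Tex16 on the same strand. In mm10 (GRCm38, GENCODE vM21), Hgf occupies chr5:16553495-16620152, Svep1 chr4:58042442-58206859 (opposite Gm26889), Fam129a chr1:151571186-151721939, Mmp17 chr5:129584169-129611099, Plscr5 chr9:92192936-92209772 and Gm45194 chrX:111891389-112240590. Gm13974 at chr2:114854093-115043972 on the plus strand and Gm28494 at chr2:114897916-115220708 on the minus strand overlap by 146057 bases. The nearest coding genes on their sides are Dph6 and BC052040, and Meis2 lies beyond BC052040 at chr2:115863064-116065839. Gm13912 lies at chr2:108183716-108291319.

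RefSeq lists promoters, from 250 bases before to 50 bases after a transcript start, for 6 of the 10 genes. Hgf and Svep1 are shown because they name the set, and Gm13974 because it was the gene of the 10 least often stored in the other neurons. Capitals mark TAATTA, a core recognised by many homeodomain factors including those of this lineage, and TGACAG (or its reverse complement CTGTCA), a core recognised by Meis factors. The 3 sequences are from GRCm38.p6, read 5' to 3' on the gene's own strand: Hgf (first of its 2 listed promoters) from chr5:16553245-16553544 on the plus strand, Gm13974 from chr2:114853646-114853945 on the plus strand and Svep1 from chr4:58206547-58206846 on the minus strand.
Hgf: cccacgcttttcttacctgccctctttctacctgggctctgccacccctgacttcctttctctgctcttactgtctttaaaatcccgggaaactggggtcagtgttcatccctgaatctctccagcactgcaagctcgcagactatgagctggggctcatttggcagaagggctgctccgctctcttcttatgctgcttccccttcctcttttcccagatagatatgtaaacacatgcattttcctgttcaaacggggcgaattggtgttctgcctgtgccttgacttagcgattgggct
Gm13974: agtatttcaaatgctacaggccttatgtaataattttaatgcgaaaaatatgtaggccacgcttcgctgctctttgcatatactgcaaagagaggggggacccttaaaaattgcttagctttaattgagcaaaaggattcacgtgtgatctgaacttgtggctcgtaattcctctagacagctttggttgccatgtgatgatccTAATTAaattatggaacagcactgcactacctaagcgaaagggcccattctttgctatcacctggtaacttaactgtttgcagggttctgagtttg
Svep1: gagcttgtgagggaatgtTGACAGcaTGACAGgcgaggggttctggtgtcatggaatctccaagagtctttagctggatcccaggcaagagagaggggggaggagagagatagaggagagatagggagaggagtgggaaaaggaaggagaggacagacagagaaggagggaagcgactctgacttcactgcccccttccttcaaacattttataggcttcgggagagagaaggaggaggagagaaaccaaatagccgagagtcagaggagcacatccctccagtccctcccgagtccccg
The Gm13974 promoter held 1 TAATTA, starting at base 205 of the window, and the Svep1 promoter held 2 TGACAG, at bases 19 and 27. Over the 7 promoters of the 6 genes, 1 held TAATTA and 2 held TGACAG. Among 32851 promoters of 300 bases, 5.29% held TAATTA and 19.2% TGACAG on either strand. These matches describe letters in the window only.

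How often each of the 10 genes was stored in members, and in other neurons of like depth, is a description of the rule and no test. For each member the 10 other neuron nuclei of its library with the nearest number of stored genes were taken as matched nuclei. Adamts19 was the most widespread gene of the set, stored in 70.3%, 64.7%, 72% and 74.3% of members and in 29.8%, 31.4%, 27.6% and 26.3% of matched nuclei. Hgf was stored in 34.4%, 22.4%, 40% and 20% of members against 5.63%, 3.53%, 7.20% and 1.71% of matched nuclei. Both Hgf and Adamts19 were above the matched nuclei in each library, and Hgf was held by a minority of members everywhere. Svep1 was stored in 21.9%, 9.41%, 18% and 5.71% of members, making it the least common gene of the 10, and its count was 0 in uninjured 2 and injured 2.

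The 2 overlapping noncoding genes were rare in matched nuclei. Gm13974 was stored in 40.6%, 45.9%, 50% and 28.6% of members against 1.09%, 3.18%, 3.80% and 0.571% of matched nuclei. Gm28494 was stored in 48.4%, 55.3%, 40% and 31.4% against 4.06%, 9.06%, 5.2% and 0.857%. Over all 2644 neuron nuclei these 2 genes were stored together in 92 nuclei, with a correlation of 0.558 between their presence, and the next pair, Hgf with Gm13974, reached 0.235. The points of these correlations share library and depth, and without the use of strand the reads of the overlapping pair cannot be told apart. Counting the pair as 1 gene left 58, 72, 48 and 32 members.

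The remaining genes were intermediate. Mmp17 was stored in 62.5%, 51.8%, 48% and 42.9% of members, Gm45194 in 53.1%, 30.6%, 62% and 48.6%, and Plscr5 in 35.9%, 43.5%, 36% and 42.9%. Fam129a stood at 23.4%, 23.5%, 20% and 42.9%, highest in injured 2, and Gm13912 at 25%, 29.4%, 26% and 17.1%. In each library, each of these 5 genes was stored more often in members than in matched nuclei.

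**Figure D1:**
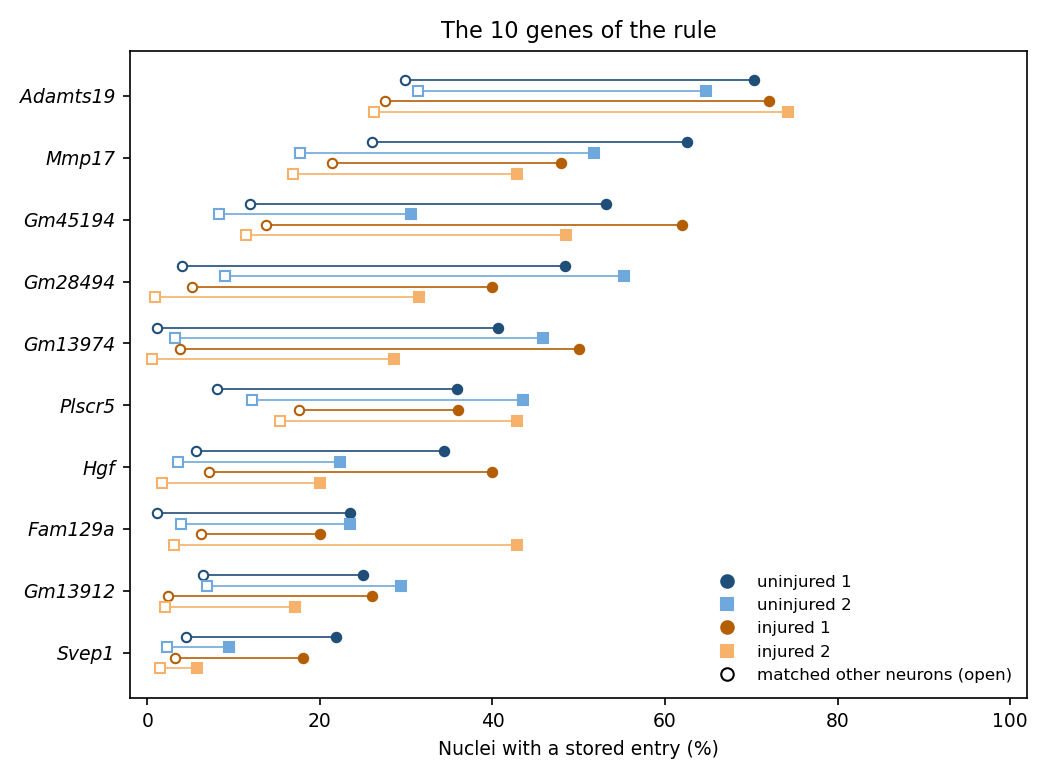
Percent of nuclei with a stored entry for each of the 10 genes of the rule (x axis) in members (filled) and in matched other neurons of the same library (open), 1 colour and marker per library, joined by a line. Adamts19 sits between 64.7% and 74.3% in members, while Svep1 does not exceed 21.9%.

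A gene left out of the choice can be examined in nuclei chosen on the other 9. Among the nuclei with 3 or more of the other 9 genes, 52.3% stored Adamts19, against 18.5% of nuclei with none of the other 9. For Hgf the shares were 23.9% and 3.20%, for Gm13974 34% and 1.17%, and for Svep1 9.46% and 1.78%. These genes were picked together as marks of the same nuclei and the nuclei with 3 of 9 are deeper, so the shares are a description. Among the single genes, Mmp17 (35.8% against 11.1%) and Adamts19 were also the most common where none of the others was stored.

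The members were not uniform. Of the 234, 125 (53.4%) held exactly 3 of the 10 genes, 54 held 4, 23 held 5, 20 held 6, 7 held 7, 4 held 8 and 1 held 9. They showed 132 distinct combinations of genes, the most frequent being Mmp17, Plscr5 and Adamts19 in 10 nuclei, and 86 combinations occurred once. Of the 3 genes in the name, 162 members stored Adamts19, 68 Hgf and 33 Svep1, 6 stored all 3 and 42 none. Nuclei just outside the rule, with 2 of the genes, numbered 358, of which 83.8% stored Slc17a6 and 54.2% Lhx4. Those just inside, with exactly 3, stored Slc17a6 in 95.2% and Lhx4 in 60%. They were also deeper, with a median of 6505 stored genes against 5766.5 with 2. With 4 genes the shares were 96.3% and 75.9%, and with 5 they were lower, at 87.0% and 47.8%.

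Members were deeper than other neurons in each library. Median counts were 18967, 14581, 11643 and 10011 in members against 9890, 7320, 5438 and 6557 in the others, and median stored genes 7040.5, 6702, 6063 and 5828 against 5256, 4576, 3918 and 4410. The share of members rose with depth from 0.567% of neuron nuclei in the shallowest of 5 equal groups to 24.5% in the deepest, and with 4 or more genes required from 0.189% to 11.3%. Whether the members hold more RNA or the rule picks deep nuclei was not tested. Matching on depth left mean stored genes close in 3 libraries (such as 7094 against 7057 in uninjured 1) but 6629 against 6197 in injured 1. Mean counts differed more in injured 1, at 18170 in members against 13750 in matched nuclei, than in injured 2, at 11040 against 10699. Members and matched nuclei of injured 1 were thus not of equal depth.

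**Figure D2:**
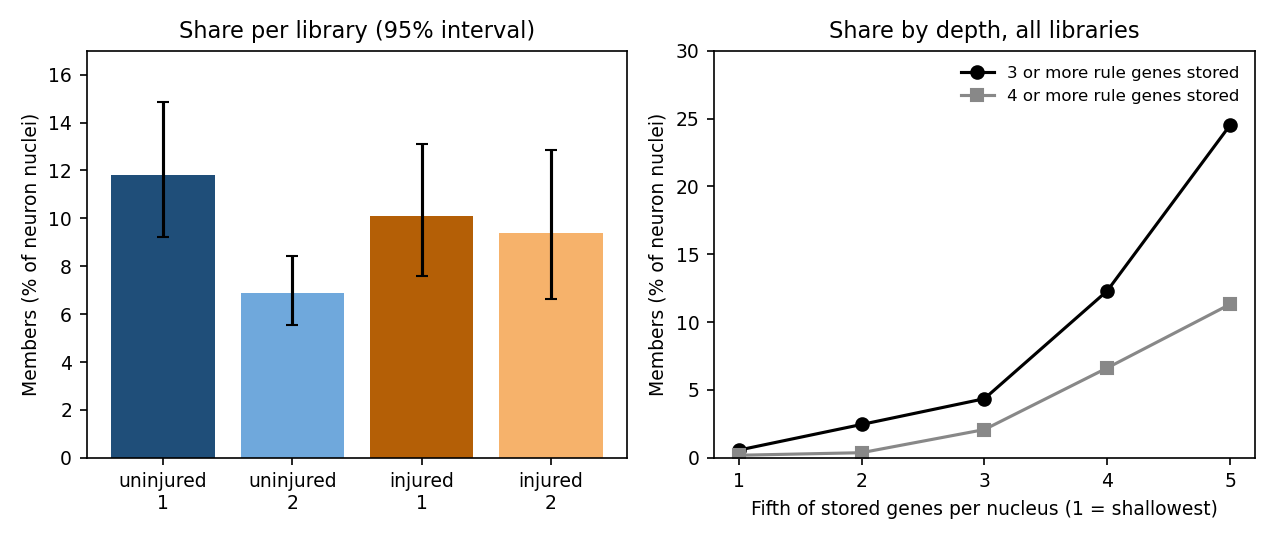
Left: members as a percent of neuron nuclei in each library (bars, from 0) with exact 95% binomial intervals, which cover counting error only. Right: members as a percent of neuron nuclei in 5 equal groups ordered by stored genes per nucleus over all libraries, with at least 3 or at least 4 rule genes required, where the share climbs from 0.567% to 24.5% for 3 genes.

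Whether the share of these neurons differed after injury was asked over libraries. Members made up 11.8% (exact 95% interval 9.23 to 14.9), 6.88% (5.53 to 8.43), 10.1% (7.59 to 13.1) and 9.41% (6.64 to 12.8) of neuron nuclei. The means were 9.35% ± 3.50 (SD, n = 2) uninjured and 9.75% ± 0.490 (SD, n = 2) injured. The 2 injured libraries lay between the 2 uninjured ones, and the difference of 0.401 points was not significant by an exact two-sided permutation test (p = 1), whose smallest possible p with 2 libraries a group is 0.333. Weighted to equal bands of stored genes, the shares were 8.31%, 7.25%, 13.6% and 10%, a difference of 4.06 points with both injured libraries above (exact permutation p = 0.333, the smallest possible). The injured libraries were also the shallower pair. The difference was -0.666 points with 2 or more genes required and -0.732 points with counts in place of stored entries.

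Genes outside the rule were then compared between members and matched neurons, again with no test, since the 10 genes were themselves taken from these nuclei. Of 9512 genes stored in at least 20% of members, or of matched nuclei, in each library, 1185 (12.5%) were stored more often in members in all 4 libraries and 391 (4.11%) less often, with a median difference of 1.06 points. Differences of 10 points or more in all 4 libraries were few: 9 genes were higher (0.0946%) and 8 lower (0.0841%). The higher genes included Dlk1, Syt6, Syt10, Col25a1, Oprm1, Cacna1i, Fbln5 and 6330576A10Rik, and the lower ones were Sema6d, Chrm2, Cobl, Adcy2, Dner, Nfib, Kirrel3 and 9330158H04Rik. The 2 symbols ending in Rik fall outside the naming rule and are listed because their values were seen to pass the same limit. Leaving out 1 library raised the numbers to between 16 and 43 higher and between 11 and 21 lower.

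The genes higher in members included a pair of synaptotagmins, vesicle proteins of the calcium sensor family. Syt6 was stored in 78.1%, 69.4%, 72% and 62.9% of members against 51.2%, 47.6%, 47.6% and 38.6% of matched nuclei. Syt10 was stored in 25%, 24.7%, 32% and 28.6% against 2.50%, 6.47%, 2% and 4%. Syt10 differed within the members as well: it was stored in 3.12%, 7.84%, 15.8% and 17.4% of members with exactly 3 rule genes and in 46.9%, 50%, 41.9% and 50% of those with 4 or more. In each library Syt10 was more frequent where more rule genes were stored. In the members with 3 genes its share lay near that of the matched nuclei in the uninjured libraries. In the injured libraries those members stayed above the matched nuclei, at 15.8% and 17.4% against 2% and 4%.

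Other genes higher in members act at the membrane, in signalling or in the matrix. Oprm1, the mu opioid receptor, was stored in 76.6%, 77.6%, 84% and 71.4% of members against 63.1%, 65.5%, 60.2% and 55.1%. Cacna1i, a low-voltage-activated T-type calcium channel, stood at 60.9%, 60%, 60% and 42.9% against 48.9%, 37.4%, 42.2% and 30.6%. Col25a1, a transmembrane collagen, was stored in 70.3%, 65.9%, 72% and 57.1% of members, and Fbln5, a protein of elastic fibres, in 37.5%, 35.3%, 36% and 37.1%. Bdnf, the neurotrophin that signals through TrkB, was stored in 53.1%, 41.2%, 38% and 37.1% of members against 30.6%, 31.8%, 23.4% and 26.6%. Dlk1, a ligand-like membrane protein related to Notch ligands, varied most among libraries, at 56.2%, 36.5%, 70% and 68.6% of members.

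Meis2, a homeodomain factor whose gene lies on the same chromosome as Gm13974 and Gm28494, was stored in 87.5%, 87.1%, 98% and 85.7% of members against 78%, 70.4%, 85.4% and 70% of matched nuclei. Its summed level was 583, 401, 480 and 339 CPM in members against 252, 224, 318 and 206 CPM in matched nuclei. Like Syt10, it was more frequent in members with 4 or more rule genes (96.9%, 100%, 100% and 91.7%) than in those with 3 (78.1%, 78.4%, 94.7% and 82.6%). The other named genes higher in members were Ttc1, Zbtb1, Tmem65, Ppp2r5b and Sox5os4, with smallest differences over the libraries of 8.94 to 9.88 points.

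Among the genes lower in members, Sema6d, a transmembrane semaphorin of axon guidance, was stored in 62.5%, 69.4%, 60% and 51.4% of members against 87.7%, 88.1%, 84.4% and 78.6% of matched nuclei. Chrm2, a muscarinic acetylcholine receptor coupled to inhibitory G proteins, stood at 65.6%, 61.2%, 52% and 57.1% against 81.2%, 79.3%, 80.2% and 76.6%. 9330158H04Rik, also lower, lies opposite Chrm2, so the 2 are not independent without strand. Nfib, a nuclear factor that marks late-born local spinal neurons, was stored in 14.1%, 23.5%, 26% and 8.57% of members against 29.7%, 34.6%, 39.4% and 27.4%. Cobl, an actin nucleator, and Chn2, a regulator of the GTPase Rac, were also stored less often in members in all 4 libraries. The remaining lower genes were Dner, Adcy2, Kirrel3, Ptprt and Zdhhc2, all stored in 37.1% or more of members.

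**Figure D3:**
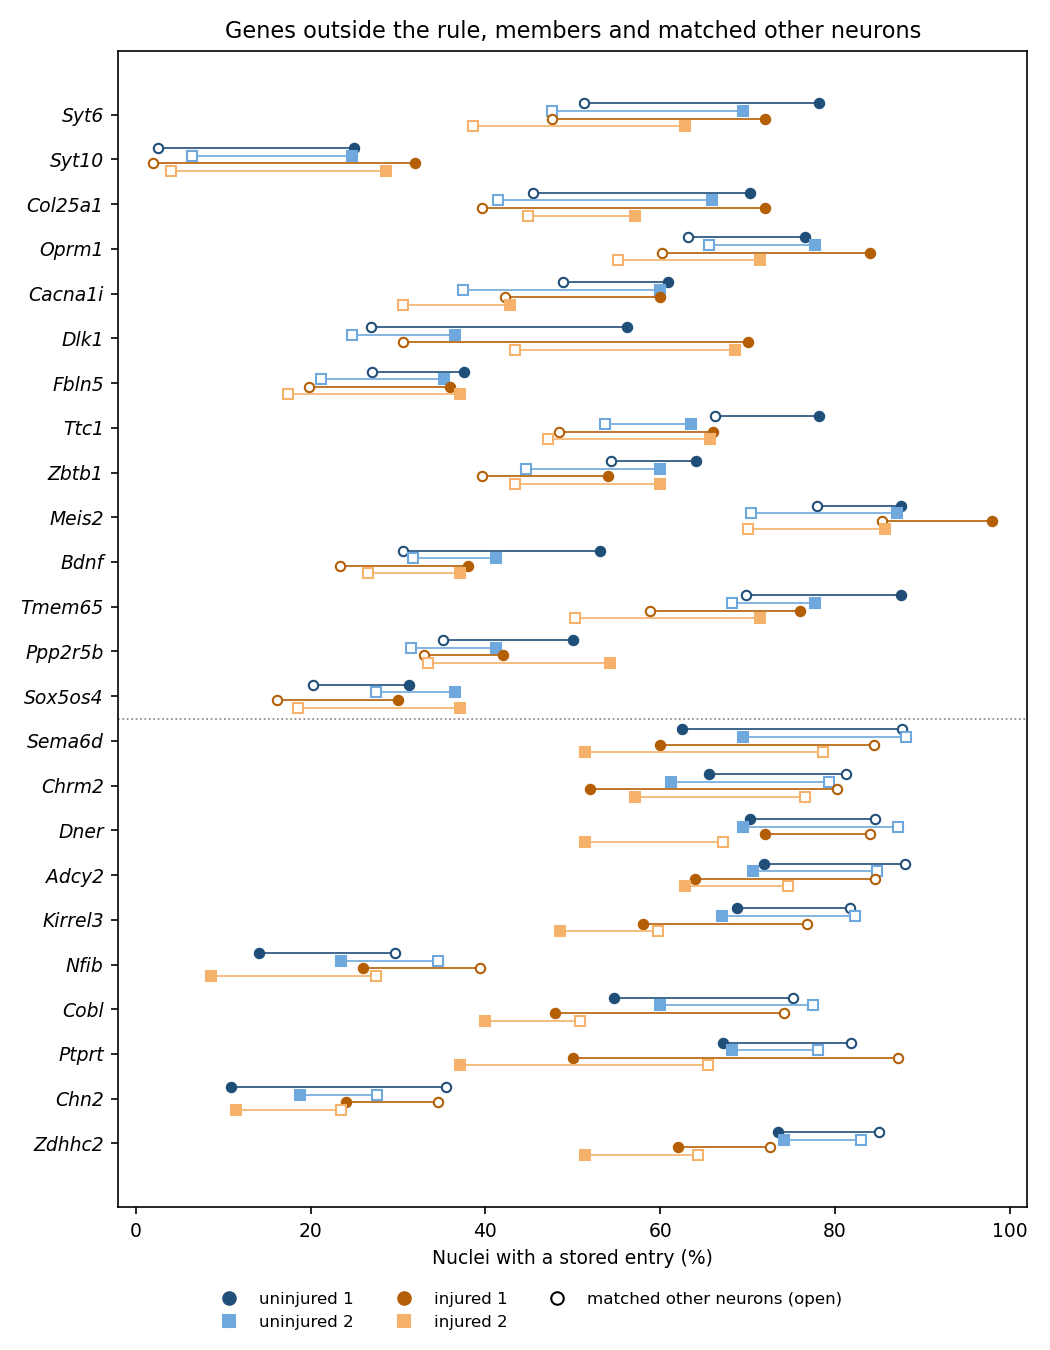
Percent of nuclei with a stored entry (x axis) in members (filled) and in matched other neurons (open) for 14 genes higher (above the dotted line) and 10 genes lower in members, 1 colour and marker per library. Syt10 is stored in 24.7% to 32% of members and in 2% to 6.47% of matched nuclei, and Sema6d in 51.4% to 69.4% against 78.6% to 88.1%.

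Lists of genes were read against the 12.5% and 4.11% of all genes, by counts and medians only. Of 13 peptide and hormone receptors that could be compared, 7 were stored more often in members in all 4 libraries and 1, Ghr, less often, with a median difference of 4.73 points. They were Oprm1, Crhr1 (the receptor for corticotropin-releasing hormone), Hcrtr2 (an orexin receptor), Tacr1 (the substance P receptor), Oprd1, Npy5r and Trhr. Crhr1, for example, was stored in 51.6%, 68.2%, 54% and 60% of members against 50.5%, 51.1%, 45.8% and 40.9%, so the difference was small in uninjured 1. Of 15 GABA-A and glycine receptor genes, 6 were higher, among them Gabrg1 at 35.9%, 27.1%, 46% and 31.4% against 23.8%, 22.9%, 8.20% and 22.6%, and 1, Gabrg3, lower. Of 14 ionotropic glutamate receptor genes 4 were higher (such as Gria1 and Grik1) and 2 lower (Grin3a and Grik3), with a median of 0.374 points.

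Transcription factors that divide long-projecting from local spinal neurons moved in both directions. Of 8 projection neuron factors, 3 were higher in members in all 4 libraries (Meis2, Zfhx4 and Pou2f2) and 1 lower. Of 5 local neuron factors, 2 were lower (Nfib and Satb1) and 1 higher (Mef2c), and the median difference was -6.50 points. Of 7 V2a and V2 lineage factors 1 was higher in all 4 libraries, Shox2, at 48.4%, 31.8%, 34% and 40% against 44.5%, 26.4%, 28.2% and 32.3%, and 0 were lower.

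The partners of the label's own genes did not move as a group. Met, the receptor of Hgf, was stored in 1.56%, 2.35%, 6% and 0% of members and had no count in any library. Of the 26 genes of HGF and MET signalling, 9 stayed under 5% of members in every library, among them the activating proteases and inhibitors Hgfac, St14 and Spint1. Of its 10 comparable genes, 1 was higher in members in all 4 libraries (Pik3r1) and 2 lower (Plcg1 and Sos1), with a median of -0.634 points. In the ADAMTS family of secreted metalloproteases, Adamts16 was higher (70.3%, 70.6%, 70% and 54.3% against 61.1%, 59.3%, 59% and 49.4%) and Adamts10 lower, of 7 comparable genes. In the list of Svep1 partners and Tie signalling, Angpt2, a ligand of the Tek receptor, was higher in all 4 libraries (71.9%, 74.1%, 50% and 45.7% against 63.1%, 72.4%, 42.4% and 40%), 1 of 4 comparable genes, while Tie1 was stored in at most 1.56% of members. Of the extracellular matrix and perineuronal net genes, 4 of 15 were higher, such as Acan, which encodes the net proteoglycan aggrecan, and Has3, a hyaluronan synthase.

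These neurons crossed those marked by Calcrl, Syt10 and Mtnr1a. At least 1 of those 3 genes was stored in 39.1%, 31.8%, 42% and 37.1% of members against 8.12%, 12.7%, 3.80% and 7.14% of matched nuclei, and at least 2 in 25 of the 234.

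The comparison of injured with uninjured libraries within the members used counts summed over the members of each library (1317982, 1422779, 908479 and 386392 counts). In such sums, fewer cells of a kind and less RNA per cell cannot be told apart. The rule did not use this contrast. By edgeR's quasi-likelihood F test with Benjamini-Hochberg adjustment, 0 of 6662 genes were called (0.0%), with a smallest adjusted p of 1.00. At an unadjusted p under 0.05 there were 91 genes (1.37%), 41 higher and 50 lower in injured libraries. limma-trend also called 0 genes (116 unadjusted), and DESeq2 called 2, Ptprt lower (adjusted p = 0.0100) and Sbf1 higher (adjusted p = 0.0257). Summed CPM of the 2 groups did not overlap for 760 genes higher (11.4%) and 1041 genes lower (15.6%) in injured libraries. Without uninjured replicate 1, 135 genes were called, 121 of them higher, and without any of the other libraries 0.

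The levels of the rule genes in members are a description with no test, because an entry for these genes was what made a nucleus a member in each library. Adamts19 stood at 91.8, 72.4, 70.4 and 124 CPM, and Gm13974 at 44.8, 59.7, 59.4 and 62.1 CPM. Hgf stood at 28.8, 7.73, 23.1 and 0 CPM. Sun1, the gene whose fusion the sort relied on, was stored in 84.4%, 77.6%, 78% and 74.3% of members, at 17.5, 20.4, 44.0 and 69.9 CPM (log2 fold change 1.57, SE 0.56, not called). Whether its reads include the transgene was not tested.

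The genes with the smallest unadjusted p on the lower side were led by Ptprt, a receptor tyrosine phosphatase that acts in synaptic adhesion. Ptprt stood at 580, 420, 154 and 109 CPM (500 ± 114 uninjured against 131 ± 32.1 injured, SD, n = 2 each), a log2 fold change of -1.86 (SE 0.32). Its counts came from 16, 23, 8 and 4 nuclei, and 67.2%, 68.2%, 50% and 37.1% of members stored it. Both measures put the injured libraries below the uninjured ones. With each count limited to 5 per gene and nucleus, a setting chosen after the data were seen, the log2 fold change was -0.78.

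Fgf1, a growth factor without a signal peptide whose gene lies opposite Arhgap26, stood at 203, 259, 72.6 and 82.8 CPM (log2 fold change -1.57, SE 0.33) with counts in 44, 59, 30 and 17 nuclei. It was stored in 95.3%, 95.3%, 82% and 68.6% of members, so the fall in summed counts was accompanied by fewer nuclei with an entry, and with counts limited to 5 the value was -0.92. Erbb4, a neuregulin receptor, stood at 256, 247, 82.6 and 56.9 CPM (-1.78, SE 0.34), but from 6, 10, 4 and 3 nuclei, with 65.3% of its counts in injured 1 from 1 nucleus, and with counts limited to 5 the value was -0.30. Both genes were also lower in the injured libraries in the other neurons. There Erbb4 stood at 563, 637, 243 and 260 CPM (-1.32, SE 0.20) and Fgf1 at 190, 209, 97.5 and 98.7 CPM (-1.09, SE 0.20). None of the 3 genes passed the adjusted threshold in edgeR with low-count genes filtered out and all 4 libraries. Without the filter Ptprt (adjusted p = 0.000971) and Erbb4 (0.0150) passed in edgeR, and without uninjured replicate 1 all 3 did (0.0365 for Ptprt, 0.0315 for Erbb4 and 0.0271 for Fgf1). The other named genes with lower values were Ptpn9, Asxl3, Rarb, Kcnc2 and Ndst4. Asxl3, a chromatin regulator, had 34 and 17 counts in the uninjured and 0 in both injured libraries, though 58% and 48.6% of injured members still stored it. A fit on stored entries in place of counts gave it a log2 fold change of -0.36.

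On the higher side several genes had 0 counts in both uninjured libraries while many members stored them. Sbf1, a regulator of membrane lipid phosphatases, had 0, 0, 55 and 11 counts and was stored in 70.3%, 69.4%, 76% and 68.6% of members. Pnn, a nuclear protein of splicing and cell adhesion, had 0, 0, 36 and 9 counts and was stored in 90.6%, 87.1%, 96% and 80%. Unweighted stored shares of the 2 groups overlapped for both genes. Weighted to equal depth bands, Sbf1 stood at 64%, 69.3%, 76.1% and 81.7%, with both injured libraries above, and Pnn at 87.5%, 86.1%, 95.3% and 82.2%, with the groups overlapping. Sirt2, Htra2 and Atp9a showed the same pattern of 0 counts in uninjured and 24 to 28 in injured members. No fold is given for these genes, because a corrected count of 0 was read as possibly emptied detections. A fit on stored entries in place of counts gave log2 fold changes of 0.18 for Sbf1 and 0.13 for Pnn. For Sirt2, Htra2 and Atp9a it gave -0.029, 0.28 and 0.042. In the other neurons Sbf1 stood at 0, 0.300, 52.98 and 30.05 CPM, Pnn at 0.348, 0, 59.1 and 21.9 CPM, Sirt2 at 0, 1.60, 43.5 and 7.31 CPM and Htra2 at 0, 1.5, 40.2 and 23.1 CPM. Atp9a stood at 0, 14.8, 37.8 and 17.9 CPM there, with a log2 fold change of 1.74 (SE 1.98). What the free RNA correction contributed to these differences was not tested. Plce1, Gps2 and Pde11a completed the named genes with higher values, and for Pde11a 94.1% and 92.3% of the injured counts came from 1 nucleus each.

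**Figure D4:**
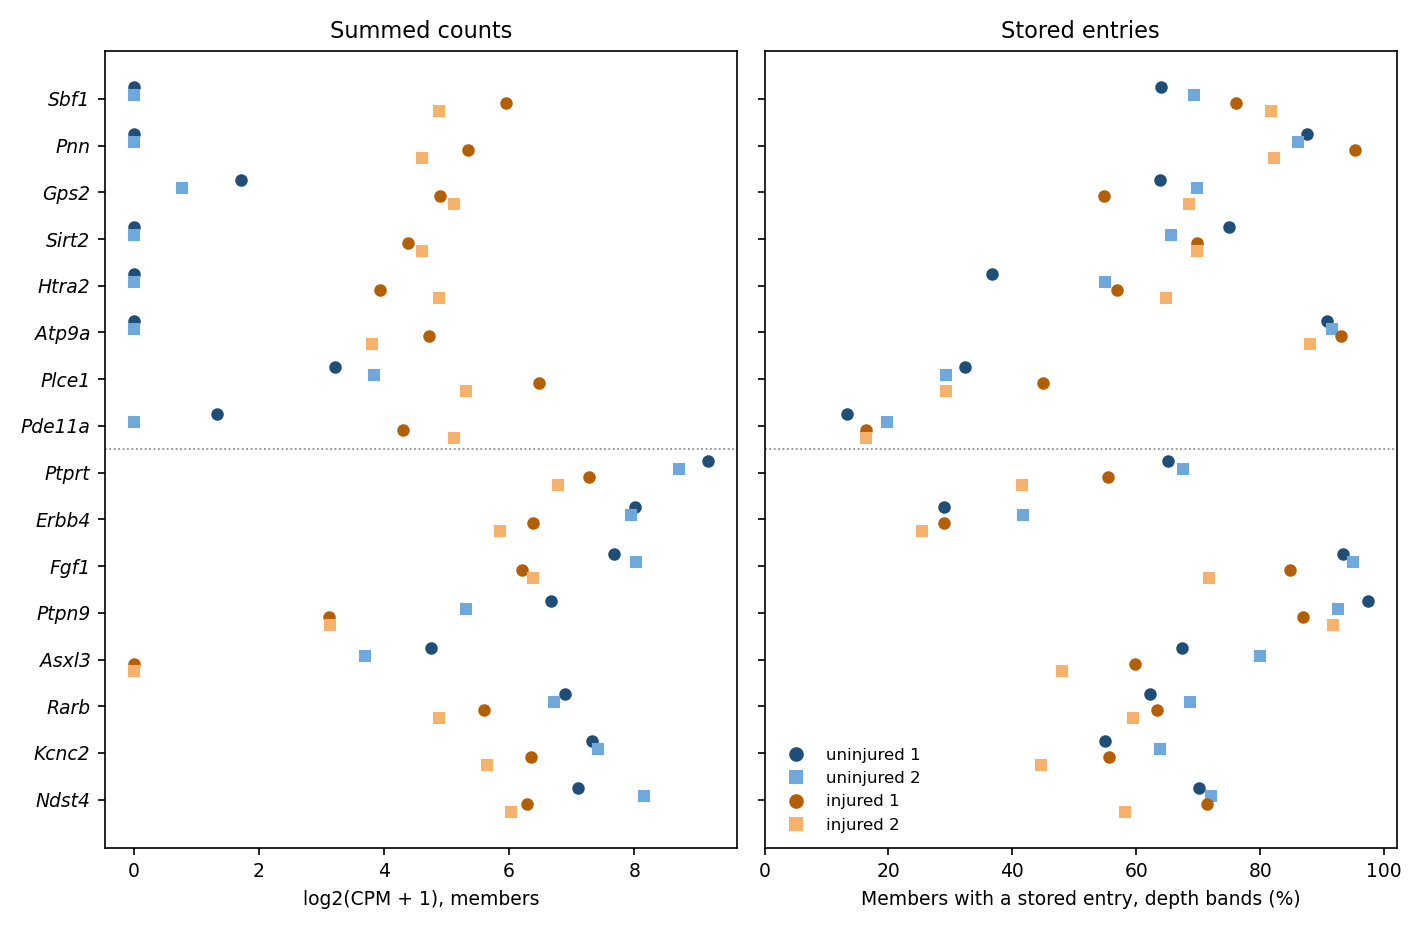
Left: summed counts of members as log2(CPM + 1) for the 8 genes with the smallest unadjusted p higher (above the dotted line) and lower after injury, 1 point per library. Right: percent of members with a stored entry for the same genes, weighted to equal depth bands. Ptprt and Fgf1 separate the groups in both panels, and Sbf1, at 0 counts in both uninjured libraries, is stored in most members of each library.

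With the filter and all 4 libraries, none of the gene lists held a gene called by edgeR within the members, and without the filter Ptprt, Erbb4 and Sema5a were called. Over all 6662 genes 3230 had lower fitted values, with a median log2 fold change of 0.016. Of 6 sodium channel genes tested all had lower fitted values (median -0.24), of 14 GABA-A and glycine receptor genes 12 (median -0.32), and of 29 synaptic adhesion genes 21 (median -0.07). Stored entries weighted to depth bands were more even. There 2 sodium channel genes were higher and 6 lower (median -0.83 points). For the receptor genes these numbers were 6 and 7, and for the adhesion genes 12 and 12, both with a median of 0 points. Of 7 regeneration-associated genes 3 were higher and 4 lower (median -0.06). Atf3, induced in axotomised neurons, was stored in 0%, 0%, 6% and 0% of members and had no count. Named list genes at an unadjusted p under 0.05 included Thsd4, a matrix protein of microfibrils, at 107, 105, 183 and 225 CPM (0.96, SE 0.29), Timp3, an inhibitor of matrix metalloproteases whose gene lies opposite Syn3, at 155, 200, 82.6 and 44.0 CPM (-1.41, SE 0.45), and Gfra1, the GDNF co-receptor, at 19.7, 19.7, 58.3 and 51.8 CPM (1.51, SE 0.53). In each of these 3 genes the groups did not overlap, as in 11.4% and 15.6% of all genes in the 2 directions.

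A fit of the number of member nuclei with a stored entry, in place of counts, called 6 of 11332 genes (0.0529%; edgeR quasi-likelihood F test), 4 lower and 2 higher. Cd163l1, a scavenger receptor of the cysteine-rich family, was stored in 75%, 60%, 16% and 11.4% of members (log2 fold change -2.10, SE 0.30, adjusted p = 0.000102). Its summed level was 62.2, 30.2, 4.40 and 12.9 CPM, and in the other neurons it was stored in 61.2%, 36.5%, 2.47% and 6.53%. The lower share in injured libraries was therefore present in members and in other neurons alike. Gm26979, Rasgrp4 and 4930565N06Rik also fell, and Creb3 and Spcs1 rose, the last 2 with 0 counts in every library.

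Hox genes, which set the position of a neuron along the cord, were read from stored entries weighted to equal depth bands, since only 1 gene of the caudal list had counts enough for the test. Of 5 caudal Hox genes stored in at least 20% of members on average, 4 were stored more often in the injured libraries, with a median difference of 11.8 points, against 5312 of 10505 genes and a median of 0.0992 points over all genes at that level. Hoxa7 stood at 28.3%, 30.4%, 54.2% and 60.9%, Hoxb6 at 52%, 47.1%, 59% and 63.7%, and Hoxc8 at 6.03%, 27.1%, 28.1% and 40%. In these 3 genes both injured libraries lay above both uninjured ones, as they did for 20% of all genes at that level. Unweighted, the groups stayed apart for Hoxa7 (29.7%, 30.6%, 52% and 57.1%) and overlapped for Hoxb6 and Hoxc8. Hoxa7 lies opposite Hoxaas3, and these genes were singled out after their values were seen. The injured tissue lacked the 2 most rostral segments, and segment range and injury cannot be told apart.

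Whether injury differed in its effect between members and other neurons was tested as an interaction over 8 sums with library as a block. edgeR called 14 of 9711 genes (0.144%), 9 with a higher and 5 with a lower injury difference in members. Ptprt was among them: its injury difference in members lay 1.46 log2 units below that in other neurons (interaction -1.46, SE 0.29, adjusted p = 0.00200). In the other neurons Ptprt stood at 1013, 1035, 904 and 745 CPM. Members were thus lower than other neurons in all 4 libraries and lower again in the injured ones. Over 11 alternative fits Pde11a was called in 8, Snrnp70 in 7 and Ptprt in 6, and Ptprt was the 1 gene that DESeq2 called. Pde11a had 2, 0, 17 and 13 counts in members, from 1, 0, 2 and 2 nuclei. In other neurons it stood at 21.0, 149, 14.8 and 13.0 CPM. Its interaction was 7.63 on counts and 0.79 on stored entries. With counts limited to 5 per gene and nucleus Ptprt was not called, at an interaction of -0.74 and an adjusted p of 0.897. In injured 2 a single nucleus held 61.9% of the Ptprt counts of members. Leaving out uninjured replicate 1 gave 79 calls, and leaving out any of the other libraries 4 to 6. A fit on stored entries called 0 genes (277 unadjusted), and with only Slc17a6-storing nuclei as other neurons 2 were called, Ptprt and Pde11a. In the other neurons alone, injury gave 0 calls among 10924 genes (253 at an unadjusted p under 0.05; edgeR).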

How the data were processed

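The deposited matrices hold counts of unique molecules per gene and nucleus, in whole numbers, and their names say that the authors had corrected them for free RNA with SoupX, with no version or setting named. The submitters' processing notes name the build mm10 and the tools Seurat 5.0.0 and Cell Ranger. Library totals were 2901680 to 13496025 counts. Nuclei with under 500 genes with a count were dropped (407 in all), and no doublet caller was run. Members and gene lists were chosen with earlier results of these data known. Counts were summed per library and tested with edgeR 4.0.16 (TMM, filterByExpr, quasi-likelihood F test, Benjamini-Hochberg adjusted p under 0.05) in R 4.3.3, over 2 uninjured and 2 injured libraries. The interaction fit had library as a block. SE is the log2 fold change over the square root of F. limma 3.58.1 and DESeq2 1.42.0 were alternatives, and the fits were also run on simulated data. At the spread between libraries estimated from these data, the injury fit called few of the genes simulated as changed. The absence of injury calls therefore does not show that no gene changed. Shares used Python 3.11.15, exact binomial 95% intervals (counting error only) and exact permutation tests from scipy 1.17.1.

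The genes named are the rule genes, the 15 and 10 genes with the most uniform difference from matched nuclei over the libraries, the 8 with the smallest p per direction of injury, up to 6 called interaction genes per direction, up to 4 per list, and the checks Slc17a6 and Sun1; some genes the rule names are not reported here, and symbols of predicted genes were left out of the ranked sets. The way of matching to 10 nuclei, the limit of 10 points, the depth bands, the motifs, the oligodendrocyte comparison, the limit of 5 counts and the count of Gm13974 and Gm28494 as 1 gene were chosen after the data were seen. Alternatives changed normalization, filter, membership rule, comparison nuclei and libraries.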

Additional observations from a re-analysis of the deposited data

Results flagged for a closer look

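The 14 genes whose injury difference in members differed from that in other neurons by the edgeR interaction test are listed here with their log2 interaction, of which 9 were higher and 5 lower in members. Ptprt had -1.46, Snrnp70 -2.94, Rsrp1 -3.26, Hs3st2 -2.54 and Gm11290 -12.25. Pde11a had 7.63, Slc1a2 8.72, Eepd1 4.94, Bcl11a 3.78, Rorb 2.29, Tsix 2.03, Maml2 1.86, Trpm3 1.30 and E230016K23Rik 10.25.

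Trpm3, a cation channel, stood at 128, 194, 146 and 158 CPM in members and at 370, 1134, 305 and 253 CPM in other neurons, with the highest value in the other neurons of uninjured 2. Rorb, a nuclear receptor, stood at 10.6, 29.5, 50.6 and 49.2 CPM in members and at 105, 112, 74.9 and 49.9 CPM in other neurons. Maml2, a Notch coactivator, stood at 144, 8.43, 161 and 160 CPM, with the low value in uninjured 2 alone, while 77.6% of the members of that library stored it.

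Snrnp70, a splicing protein, was stored in all members of each library yet stood at 28.8, 112, 22.0 and 0 CPM, and at 12.9, 74.2, 115 and 0 CPM in other neurons. Rsrp1 stood at 0, 138, 12.1 and 0 CPM with 96.9% or more of members storing it. Several of the other genes rested on single nuclei: 1 nucleus held 100% of the 17 Slc1a2 counts and of the 18 E230016K23Rik counts in injured 1, and 93.3% and 82.9% of the Hs3st2 counts in the uninjured libraries. Gm11290 had 14 counts in uninjured 1 and 0 elsewhere, Eepd1 had 4, 1, 18 and 0, and for Bcl11a 1 nucleus held 76.9% of the counts in injured 2. Tsix lies opposite Xist and E230016K23Rik opposite Ccl6. The part of single nuclei and of the free RNA correction in these values was not tested.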

How the results depend on the processing

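The difference in share was -0.666 points with 2 or more rule genes and -0.732 points with counts, and ranged from -2.08 to 2.88 points with 1 library left out. The injury calls within members numbered 14 without a filter, 6 on stored entries, 2 with DESeq2 and 0 to 135 with 1 library left out. The replicate block gave 0 calls (60 unadjusted); same-numbered libraries had a correlation of -0.0717, over 2 pairs, and the numbers were not shown to pair them. The interaction calls numbered 3 with RLE size factors, 0 on stored entries, 2 against Slc17a6-storing nuclei, 1 with DESeq2 and 4 to 79 with 1 library left out, and its library block already contains the replicate number. Genes 10 points higher in members numbered 3767 with unweighted shares, 54 with 4 or more rule genes and 16 to 43 with 1 library left out, and lower ones 0, 28 and 11 to 21. Gps2 (-0.21), Sirt2 (-0.029) and the Rorb interaction (-0.35) turned direction on stored entries, the Eepd1 interaction without injured replicate 1 (-1.18 to 6.89 over the 4 left-out libraries) and Zdhhc2 (6.96 points) with unweighted shares. The causes were not tested, except that unweighted shares compare members with shallower nuclei by construction. Of the values of single named genes, 214 for injury and 43 for the interaction kept direction and side of the threshold. A further 12 for injury kept direction and newly passed the threshold. For the interaction, 75 kept direction but no longer passed it. The depth of injured 2 (35 members, 386392 counts) and 2 libraries per group limit these results.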
